A study of Mus musculus with 2 samples.

Results

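The cells described here are A20 tumour cells rich in transcripts of Hmox1, Cd59a, Cox6a2, Mt2 and Gsto1, taken from single-cell RNA libraries of A20 tumours. A20 is a mouse B cell lymphoma line. Each cell was scored by the UMIs (unique molecular identifiers, 1 per captured transcript molecule) of these 5 genes per 10000 UMIs of the cell. Members were the cells in the top 10% of this score over both libraries together. They numbered 420 of 4202 tumour cells and of 4975 barcodes in all, 135 from the TAK-981 library and 285 from the vehicle library. The other 3782 tumour cells, 1761 and 2021 in the same libraries, are called remaining cells. Tumour cells were barcodes with under 10% mitochondrial UMIs and at least 200 genes, with no UMI of Cd3d, Cd3e, Cd3g or Lyz2 and at least 1 UMI of Cd79a, Jchain or Mzb1. The score was measured in the same cells, so the levels of its 5 genes in members describe the choice and are not a finding. The same holds for every other contrast between members and remaining cells, and no test was run on any of them.

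Both libraries came from BALB/c mice bearing subcutaneous tumours grown from 1000000 A20 cells. Mice were dosed intravenously when tumours were near 300 mm3, with TAK-981 at 7.5 mg/kg in 1 group and with the 20% HPbCD vehicle in the other, and tumours were collected 8 h later. TAK-981 inhibits the SUMO-activating enzyme, the heterodimer of Sae1 and Uba2 that starts the attachment of SUMO proteins to their targets. Tumours were dispersed through a 70 µm filter, dead cells were removed, and libraries were made with the 10x 5' kit. There was 1 library per arm, how many mice went into each is not stated, and drug effect and library cannot be told apart.

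Heme oxygenase 1, the product of Hmox1, breaks heme down to biliverdin, carbon monoxide and iron. Its gene is held silent by the repressor BACH1 and switched on by NRF2 (Nfe2l2) together with small Maf proteins when heme or oxidants accumulate, along with ferritin and other antioxidant genes. Ferritin, made of Ftl1 and Fth1 chains, stores the iron that heme breakdown frees. Cd59a encodes a membrane anchored inhibitor of the complement membrane attack complex. Cox6a2 is the heart and muscle form of a cytochrome c oxidase subunit, and is also expressed by plasmacytoid dendritic cells. Mt2 encodes a metallothionein, which binds zinc and copper and is induced by metals through MTF1. Gsto1 encodes an omega class glutathione transferase. Xbp1, the transcription factor of the unfolded protein response and of plasma cell differentiation, was on the marker list of these cells but not in the score.

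The promoters of the score genes were searched for motifs of the factors named above for Hmox1 and Mt2. RefSeq (GRCm38.p6) gave a window of 250 bases before to 50 after the start for 3 of the 5 score genes, and Hmox1 and Cox6a2 are named only. The Mt2 window was chr8:94172368-94172667 (+ strand), that of Cd59a chr2:104095551-104095850 (+ strand) and that of Gsto1 chr19:47854723-47855022 (+ strand). Capitals mark matches, on either strand, to TGACNNNGC, the core of the antioxidant response element bound by NRF2 or BACH1 with small Maf proteins, and to TGCACNC or TGCGCNC, the core of the metal response element bound by MTF1.
Mt2: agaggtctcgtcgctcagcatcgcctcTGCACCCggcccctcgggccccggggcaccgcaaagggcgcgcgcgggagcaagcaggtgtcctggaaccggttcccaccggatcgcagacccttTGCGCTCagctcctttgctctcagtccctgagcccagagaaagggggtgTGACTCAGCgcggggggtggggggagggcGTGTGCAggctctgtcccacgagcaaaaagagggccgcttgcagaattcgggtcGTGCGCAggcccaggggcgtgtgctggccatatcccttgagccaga
Cd59a: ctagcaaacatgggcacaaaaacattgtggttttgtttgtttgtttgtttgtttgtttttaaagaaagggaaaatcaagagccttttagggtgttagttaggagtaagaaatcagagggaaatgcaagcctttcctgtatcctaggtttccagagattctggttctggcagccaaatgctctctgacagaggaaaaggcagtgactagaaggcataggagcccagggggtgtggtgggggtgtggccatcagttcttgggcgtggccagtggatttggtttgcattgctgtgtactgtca
Gsto1: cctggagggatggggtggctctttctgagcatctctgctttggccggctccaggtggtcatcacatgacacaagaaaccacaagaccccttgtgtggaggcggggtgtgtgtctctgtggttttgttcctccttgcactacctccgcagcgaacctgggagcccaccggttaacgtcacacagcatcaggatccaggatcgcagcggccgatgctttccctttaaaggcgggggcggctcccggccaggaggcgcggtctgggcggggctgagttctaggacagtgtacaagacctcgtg
The Mt2 window held 1 match to the first motif and 4 to the second. The windows of Cd59a and Gsto1 held 0 of each. Of 32851 RefSeq promoter windows of the same length, 12.4% held the first motif and 25.7% the second. These matches are letters in a window and say nothing of binding.

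The score had no gap at the limit. The lowest member scored 8.12 and the highest remaining cell 8.11 UMIs per 10000, the 10 lowest members reached up to 8.18, the 10 highest remaining cells reached down to 8.03, and 184 tumour cells lay within 10% of the limit. The highest score was 47.6, in the TAK-981 library, while the median of all tumour cells was 2.36 and 13.6% scored 0. The median score was 11.0 in TAK-981 members and 10.7 in vehicle members. Members are thus the upper range of a continuous score and not a separate type.

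**Figure D1:**
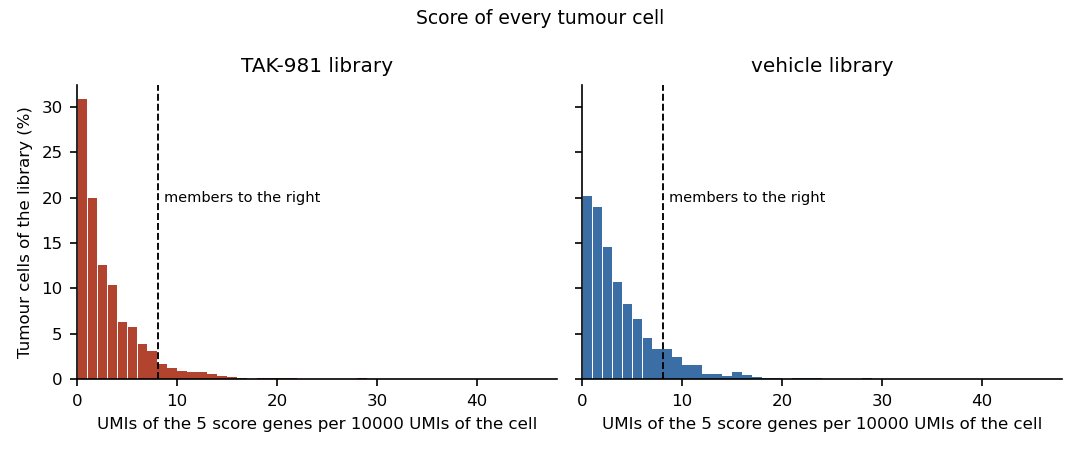
Share of tumour cells (percent, vertical axis) by score (UMIs of the 5 score genes per 10000 UMIs, horizontal axis) in the TAK-981 library (left) and the vehicle library (right), with the limit for members as a dashed line. Both distributions run through the limit without a gap, and 7.12% of TAK-981 cells and 12.4% of vehicle cells lie past it.

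Members made up 7.12% of tumour cells in the TAK-981 library (exact binomial 95% interval 6.00 to 8.37%) and 12.4% in the vehicle library (11.0 to 13.8%). The intervals cover counting error only. The score itself ran lower in the TAK-981 library, with a median of 1.95 against 2.72 in the vehicle library and a 90th percentile of 7.06 against 8.78. Over all tumour cells, 3 score genes were lower in the TAK-981 library. Hmox1 stood at 1.49 UMIs per 10000 under TAK-981 and 2.22 under vehicle, Cd59a at 0.464 and 0.677, and Gsto1 at 0.237 and 0.342. Cox6a2 and Mt2 went the other way, at 0.562 under TAK-981 and 0.439 under vehicle for Cox6a2, and 0.469 and 0.431 for Mt2. Depth also differed, since the TAK-981 library held 37470319 UMIs in 2396 barcodes (median 11840.5 per barcode) and the vehicle library 57471750 in 2579 (median 19608). With each cell thinned to 4000 UMIs before scoring, members were 9.02% of TAK-981 cells and 10.8% of vehicle cells. Scores of thinned cells come in few steps, and cells tied at the limit were taken in order, TAK-981 first. These shares therefore lean towards TAK-981 and do not measure the part that depth plays. Within each library, members were deeper than remaining cells, with medians of 17032 and 15002 UMIs per cell under TAK-981 and 23284 and 20971 under vehicle. The 2 libraries shared 11 barcodes, 10 of them tumour cells and 0 of them members.

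Members carried B cell transcripts at levels near those of the remaining cells. Cd79a, the signalling chain of the B cell receptor, had a UMI in 91.9% of TAK-981 members and 95.4% of vehicle members. The 10 B cell and A20 markers summed to 28.6 UMIs per 10000 in members and 33.5 in remaining cells under TAK-981, and to 30.9 and 32.1 under vehicle. Of 5 plasma cell markers 4 had UMIs, in 54.8% of TAK-981 members and 56.4% of remaining cells, and in 56.8% and 54.8% under vehicle, while the plasma cell receptor Tnfrsf17 was at 0 in all 4 sets of cells. A UMI of Cd79a, Jchain or Mzb1, all among the 10 markers, was required by the rule, so these 3 cannot bear on the label. Cd79b, outside the rule, had a UMI in 83.0% of TAK-981 members and 87.3% of remaining cells, and in 92.3% and 91.3% under vehicle. Members were thus B lineage cells by the rule, as labelled, with the exceptions given below. Of 11 monocyte and macrophage markers, 2 had a UMI in TAK-981 members and 6 in vehicle members, with C1qa, C1qb, C1qc and Ms4a7 at 0 in both and Lyz2 at 0 by the rule. Their sum was 0.589 in members and 0.347 in remaining cells under TAK-981, and 0.503 and 0.357 under vehicle. Of 8 T cell markers, Cd3d, Cd3e and Cd3g were at 0 by the rule and Trbc2 was at 0 in members, and the list summed to 0.142 in members and 0.171 in remaining cells under TAK-981, and to 0.159 and 0.197 under vehicle. The 7 fibroblast markers had 0 UMIs in TAK-981 members and 10 in remaining cells, and 6 UMIs in 6 members and 17 in remaining cells under vehicle, or 0.0086 and 0.0036 UMIs per 10000. Of 6 muscle markers, Acta1, Ckm and Myl1 were at 0 in members of both libraries, and the other 3 had a UMI in 27.4% of TAK-981 members and 24.0% of remaining cells, and in 26.3% and 27.4% under vehicle.

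A few members carried genes of plasmacytoid dendritic cells. Siglech, a lectin that marks those cells, had 8 UMIs in 1 TAK-981 member and 73 UMIs in 3 vehicle members, against 0 UMIs in TAK-981 remaining cells and 40 UMIs in 5 vehicle remaining cells. In all 4 of these members Cox6a2 was the largest part of the score, and each held at least 3 of Siglech, Ccr9, Klk1, Tyrobp and Plac8. The same cells held 15 of the 16 Xist UMIs of TAK-981 members and 22 of the 26 of vehicle members. Xist, the RNA of the inactive X chromosome, is expressed in female cells. The 7 dendritic cell markers, which include Siglech, summed to 0.482 in members and 0.448 in remaining cells under TAK-981, and to 0.519 and 0.388 under vehicle. No doublet caller was run. Results that rest on these 4 cells are given with and without them.

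Hmox1 carried most of the score. Members held 6.65 Hmox1 UMIs per 10000 under TAK-981 and 7.52 under vehicle, and remaining cells 1.07 and 1.44, which is 6.23-fold and 5.21-fold higher in members. The median member had 8 Hmox1 UMIs under TAK-981 and 15 under vehicle, and the richest had 69 and 90. Hmox1 gave 54.1% of the score UMIs of TAK-981 members and 62.8% of those of vehicle members, followed by Mt2 (17.6% and 11.4%), Cox6a2 (15.9% and 9.39%), Cd59a (7.93% and 10.8%) and Gsto1 (4.46% and 5.64%).

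With every cell thinned to 4000 UMIs, a Hmox1 UMI was seen in 77.8% of TAK-981 members and 83.9% of vehicle members, against 25.2% and 33.3% of remaining cells. Without thinning the shares were 90.4% and 95.4% in members and 51.9% and 69.4% in remaining cells. In T cell barcodes of the same libraries, taken here as background, the thinned share was 4.55% of 44 barcodes under TAK-981 and 6.67% of 60 under vehicle. Their median depths were 6927 and 9068 UMIs. Remaining cells thus also stood above this background. Barcodes with Lyz2, a macrophage and granulocyte lysozyme, had a Hmox1 UMI in 41.5% of 41 under TAK-981 and 77.3% of 44 under vehicle.

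The other score genes were lower in level. Mt2 stood at 2.17 UMIs per 10000 in TAK-981 members and 0.332 in remaining cells, and at 1.37 and 0.292 under vehicle. Cox6a2 stood at 1.96 and 0.449 under TAK-981, and at 1.12 and 0.337 under vehicle. Without the 4 Siglech cells the log2 ratio of members over remaining cells for Cox6a2 was 2.11 under TAK-981 and 1.62 under vehicle, against 2.13 and 1.74 with them. Cd59a stood at 0.976 and 0.423 under TAK-981, and at 1.29 and 0.587 under vehicle, and had 0 UMIs in the 41 Lyz2 barcodes of the TAK-981 library and 7 UMIs in 5 of the 44 of the vehicle library. Gsto1 stood at 0.549 and 0.211 under TAK-981, and at 0.676 and 0.293 under vehicle. After thinning, Gsto1 had a UMI in 17.8% of members and 7.84% of remaining cells under TAK-981, and in 20.7% and 10.1% under vehicle. The T cell barcodes gave 9.09% and 11.7% for the same gene, so its share in remaining cells was no higher than in T cells.

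**Figure D2:**
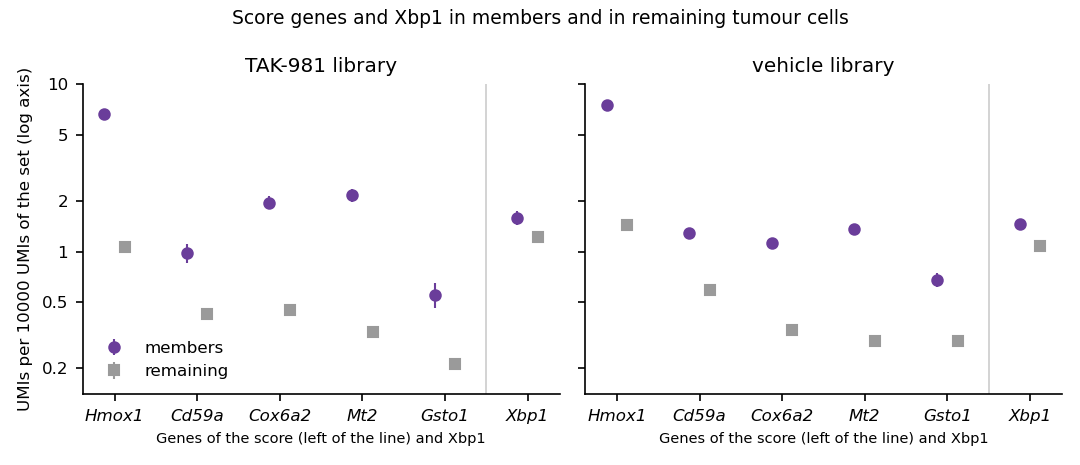
UMIs per 10000 UMIs (log axis) of the 5 score genes and of Xbp1 in members and in remaining tumour cells of the TAK-981 library (left) and the vehicle library (right), with exact binomial 95% intervals. Hmox1 is highest in members of both libraries, at 6.65 and 7.52, and Xbp1 differs least between members and remaining cells.

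Xbp1, outside the score, stood at 1.58 UMIs per 10000 in members and 1.22 in remaining cells of the TAK-981 library, and at 1.45 and 1.08 in the vehicle library. The close relatives of the score genes followed them only in part, and mostly on few UMIs. Cox6a1, the general form of the oxidase subunit, was slightly lower in members, with log2 ratios of -0.14 and -0.11. Cd59b had 4 UMIs in TAK-981 members and 17 in vehicle members. Its level was 0.0158 UMIs per 10000 in members and 0.0240 in remaining cells under TAK-981, and 0.0244 and 0.0216 under vehicle. Mt1, which usually accompanies Mt2, had 20 UMIs in TAK-981 members, all in 1 cell with no Cd79a UMI, and 1 in vehicle members. Remaining cells held 0 Mt1 UMIs under TAK-981 and 2 under vehicle. Barcodes with Lyz2 held 4.26 and 7.3 per 10000, so the gene was counted in other cells of both libraries. Gsto2 had 10 UMIs in TAK-981 members and 5 in vehicle members. Its level was 0.0395 in members and 0.0141 in remaining cells under TAK-981, and 0.0072 and 0.0102 under vehicle. Mt3, another metallothionein gene, was higher in members of both libraries, on 16 and 29 UMIs. It stood at 0.0632 and 0.0167 under TAK-981, and at 0.0416 and 0.0216 under vehicle. Reads that match both members of such pairs could be counted for either or for neither, so these values are uncertain.

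Single members usually owed their score to 1 gene, and so did remaining cells with a score above 0. Hmox1 was the largest part in 75 of 135 TAK-981 members and 214 of 285 vehicle members, Mt2 in 30 and 27, Cox6a2 in 19 and 20, Cd59a in 11 and 22, and Gsto1 in 0 and 2. A single gene gave at least 50% of the score in 78.5% of TAK-981 members and 81.8% of vehicle members. Among remaining cells with a score above 0 the shares were 88.6% and 84.0%, so this is no trait of members. All 5 genes had a UMI in 17 members under TAK-981 and 43 under vehicle. After thinning, the Spearman correlation between score genes over all tumour cells lay between 0.00 and 0.11 (1896 TAK-981 cells, 2306 vehicle cells), values too small to describe a relation in such sparse counts. Choosing the top cells on the other 4 genes left each score gene between 1.25-fold and 2.00-fold higher in the chosen cells, with Gsto1 at 2.00-fold and 1.73-fold, Cox6a2 at 1.84-fold and 1.49-fold and Hmox1 at 1.58-fold and 1.53-fold under TAK-981 and vehicle. When the members were chosen on one random portion of each cell's UMIs and the levels read from the rest, Hmox1 was still 5.35-fold and 4.54-fold higher, Mt2 4.29-fold and 3.57-fold, Cox6a2 3.78-fold and 2.83-fold, Gsto1 2.38-fold and 2.11-fold and Cd59a 1.95-fold and 1.93-fold. The counts that chose a cell are not used for its level in that reading, which otherwise comes from the same cells.

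Among genes that did not enter the score, the ferritin chains and Sqstm1 stood out by level. Ftl1 stood at 36.6 UMIs per 10000 in members and 19.2 in remaining cells under TAK-981, and at 35.6 and 20.1 under vehicle. Fth1 stood at 49.9 and 34.7 under TAK-981, and at 51.0 and 36.6 under vehicle. Sqstm1, the autophagy receptor p62 that frees NRF2 from its repressor KEAP1, stood at 4.86 and 1.77 under TAK-981, and at 4.11 and 2.03 under vehicle. Its log2 ratios were 1.46 and 1.02. Over all tumour cells after thinning, the Spearman correlation of Sqstm1 with Hmox1 was 0.149 under TAK-981 and 0.179 under vehicle. With Cox6a2 it was 0.171 and 0.093, and with the other score genes between 0.016 and 0.094. All are small values in sparse counts.

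The rest of the oxidative stress list did not follow as a whole. Of its 26 genes, 20 were measured, that is, had at least 50 UMIs in the tumour cells of each library, and 13 of them under TAK-981 and 14 under vehicle were above 0 on the log2 scale. The median log2 ratios were 0.08 and 0.13. Among all 9800 measured genes, 49.2% were above 0 under TAK-981 and 48.5% under vehicle, with a median of -0.01 in both. Txnrd1, a thioredoxin reductase, had ratios of 0.48 and 0.5, and Gclc, the catalytic subunit of the first enzyme of glutathione synthesis, 0.51 and 0.43. Its partner subunit Gclm went the other way at -0.11 and -0.21. Blvra and Blvrb, the biliverdin reductases that act after heme oxygenase, were also lower, at -0.32 and -0.26 and at -0.38 and -0.23. Nqo1 and Srxn1, classical NRF2 targets, were nearly absent from all cells, with 0 UMIs for both in TAK-981 members and 1 for Nqo1 and 0 for Srxn1 in vehicle members. Among the regulators, Nfe2l2 itself had log2 ratios of 0.68 and 0.31, the small Maf gene Mafg 0.85 and 0.30, Keap1 -0.07 and 0.11, and the B cell repressor Bach2 -0.65 and -0.70. Bach1 had 1 UMI in TAK-981 members and 2 in vehicle members, too few to compare.

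Genes of metal handling were few. For the counts in this paragraph, 49.2% of all measured genes were above 0 under TAK-981 and 48.5% under vehicle. Slc30a1, the zinc exporter that MTF1 induces, had log2 ratios of 0.89 and 0.51, and Mtf1 itself 0.44 and 0.11. Slc39a10, a zinc importer, had -0.42 and -0.16. Of the glutathione enzymes, 7 of 11 under TAK-981 and 6 of 11 under vehicle were above 0, with Gpx1 at -0.39 and -0.10 and Gstp1 at -0.35 and -0.11. Of 4 measured complement regulators, 2 were above 0 in each library. The other cytochrome c oxidase subunits were lower in members, 0 of 11 above 0 under TAK-981 and 1 of 11 under vehicle, with medians of -0.14 and -0.12.

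Hypoxia and glycolysis genes were higher in members throughout. All 18 measured genes of that list were above 0 in both libraries, with median log2 ratios of 0.32 and 0.31, where 32% of all measured genes were above 0 in both. The list summed to 73.5 UMIs per 10000 in members and 57.6 in remaining cells under TAK-981, and to 73.3 and 63.2 under vehicle. The glycolytic enzyme Aldoa stood at 20.1 and 15.3 under TAK-981 and at 21.5 and 17.1 under vehicle. Several other genes of the list had larger ratios than the enzymes Aldoa, Gapdh and Ldha. Ndrg1 had log2 ratios of 1.28 and 1.19, the mitophagy receptor Bnip3 1.06 and 0.75, the oxidase of the endoplasmic reticulum Ero1l 0.89 and 0.78, the glucose transporter Slc2a1 0.89 and 0.53, and adrenomedullin (Adm) 0.76 and 0.48. Vegfa was close to level under TAK-981, at 0.02, and 0.40 under vehicle. Gapdh and Ldha were nearly level, at 0.16 and 0.04 and at 0.19 and 0.07.

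Proliferation genes were lower in members. None of the 20 genes of the G1/S list and none of the 20 of the G2/M list was above 0 in either library, where 34.3% of all measured genes were below 0 in both. The G1/S list summed to 11.1 UMIs per 10000 in members and 17.2 in remaining cells under TAK-981, and to 13.8 and 20.2 under vehicle, with median log2 ratios of -0.70 and -0.53. Uhrf1, which carries DNA methylation through replication, had ratios of -1.17 and -1.07, and the replicative helicase subunit Mcm5 -0.83 and -0.67. The G2/M list summed to 13.6 and 19.3 under TAK-981, and to 11.3 and 19.9 under vehicle, with medians of -0.53 and -0.83. Mki67, the Ki-67 antigen of dividing cells, had ratios of -0.66 and -0.87, and topoisomerase Top2a -0.58 and -0.94. Of 42 measured histone genes, 34 were lower in TAK-981 members and 36 in vehicle members, 19 and 20 of them at least 2-fold, where 2.8% and 1.08% of all measured genes were at least 2-fold lower. A poly(A) based library holds few transcripts of replication dependent histone genes.

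**Figure D3:**
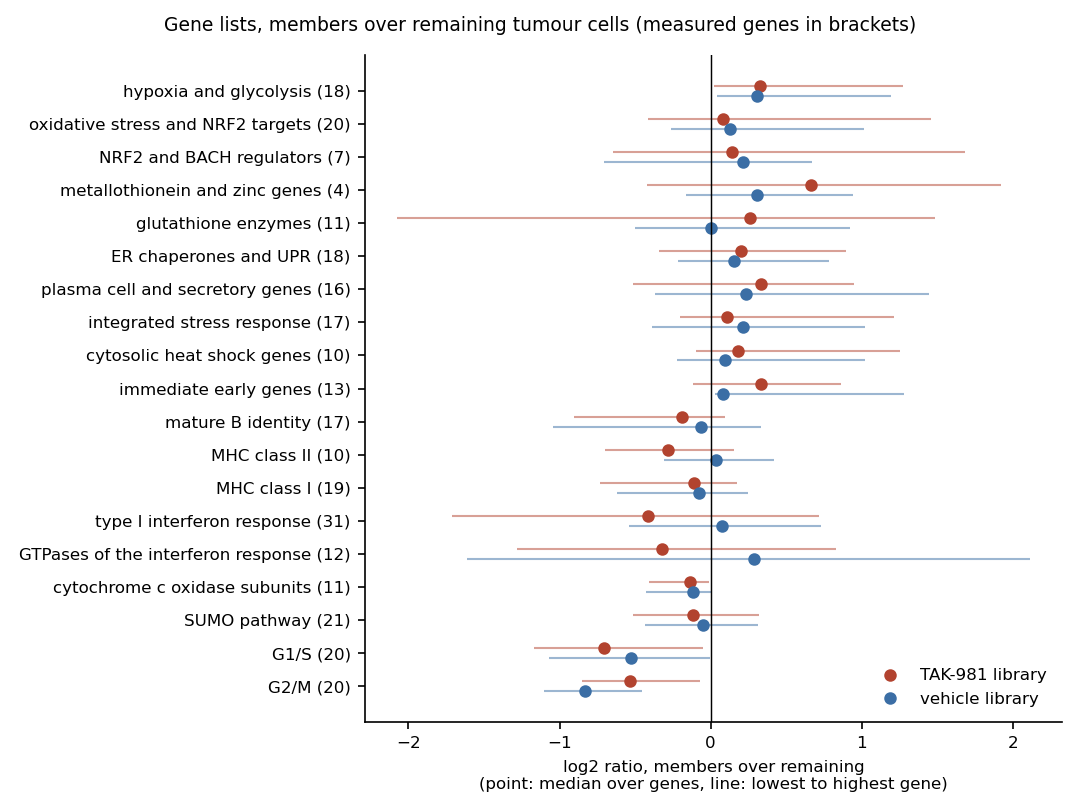
Log2 ratio of members over remaining cells (horizontal axis) for 19 gene lists in the TAK-981 library and the vehicle library, with the median over genes as a point and the range as a line. Hypoxia and glycolysis genes lie above 0 in both libraries, G1/S and G2/M genes below 0 in both, and the interferon list has medians of -0.41 and 0.07.

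Secretory genes ran slightly higher in members of both libraries, and mature B cell genes lower in TAK-981 members. Of 16 plasma cell and secretory genes, 13 were above 0 in each library, with medians of 0.33 and 0.23, although Jchain, the joining chain of secreted IgM and IgA, was lower at -0.51 and -0.37. Of 18 chaperones of the endoplasmic reticulum, 14 under TAK-981 and 15 under vehicle were above 0, led in level by Hspa5 (BiP) with ratios of 0.52 and 0.44. Of 17 mature B cell genes, 2 were above 0 under TAK-981 and 7 under vehicle, with medians of -0.19 and -0.06, where 49.2% and 48.5% of all measured genes were above 0, so the vehicle count was near that of all genes. The B lineage factors Ebf1 (-0.91 and -0.44) and Pax5 (-0.68 and -0.44) and the kinase Blk (-0.78 and -1.04) were lower in both libraries. MHC class II genes were mostly below 0 under TAK-981, with 1 of 10 above, and evenly split under vehicle, with 5 of 10. Of 21 SUMO pathway genes, 8 under TAK-981 and 9 under vehicle were above 0, and the drug target itself was slightly lower, Sae1 and Uba2 standing at -0.28 and -0.30 and at -0.24 and -0.33.

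Stress genes of other kinds were partly higher, where 49.2% of all measured genes were above 0 under TAK-981 and 48.5% under vehicle. Of 17 measured genes of the integrated stress response, which slows translation and induces genes through ATF4, 12 were above 0 in each library. Atf3 had log2 ratios of 1.21 and 1.02, Atf5 0.58 and 0.44 and the serine synthesis enzyme Psat1 -0.20 and -0.35. The sum of this list was nearly level. It was 28.4 UMIs per 10000 in members and 27.7 in remaining cells under TAK-981, and 31.4 and 31.4 under vehicle. Of 10 cytosolic heat shock genes, 9 under TAK-981 and 8 under vehicle were above 0, with the cochaperone Bag3 at 1.26 and 1.02 and Dnajb1 at 0.67 and 0.97. Immediate early genes, which respond within minutes to signals and to tissue handling, were above 0 in 11 of 13 under TAK-981 and 13 of 13 under vehicle, with medians of 0.33 and 0.08. Of 19 MHC class I genes, 6 were above 0 in each library. Mitochondrial shares were alike, with medians of 2.45% in members and 2.61% in remaining cells under TAK-981 and 2.16% and 2.03% under vehicle.

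Several of these differences were graded along the score, and others were not. Cells were split at scores of 0, 2, 4, the limit and 12. Ftl1 stood at 15.9, 16.2, 19.5, 25.9, 34.1 and 40.6 UMIs per 10000 from the lowest to the highest of the 6 classes under TAK-981, and at 18.1, 16.2, 20.7, 24.6, 31.6 and 44.4 under vehicle. Sqstm1 stood at 1.33, 1.34, 1.83, 2.70, 4.18 and 5.95 under TAK-981, and at 1.33, 1.47, 2.1, 2.77, 3.78 and 4.84 under vehicle. Both genes differed little between the lowest pair of classes and were higher in each class after that. The G2/M list stood at 17.2, 20.7, 20.1, 16.9, 13.9 and 13.1 under TAK-981, and at 17.1, 21.7, 20.2, 17.9, 12.5 and 8.74 under vehicle, so it peaked in cells with a low score and not in those with none. The G1/S list was not graded past the limit under TAK-981, at 9.61 and 13.5 in the last 2 classes, against 15.8 and 9.44 under vehicle. The chaperones of the endoplasmic reticulum stood at 45.7 and 39.8 in the same 2 classes under TAK-981 and at 32.8 and 32.7 under vehicle, and Xbp1 at 1.67 and 1.45 and at 1.27 and 1.86. Mature B cell genes were lower in each class after the lowest under TAK-981, down to 16.4 in the highest, whereas under vehicle the last 3 classes stood at 19.0, 20.1 and 18.6. Cells at score 0 were shallower, with median depths of 8202 UMIs under TAK-981 and 9419 under vehicle, and their part in these gradients was not tested. The TAK-981 classes past the limit held 82 and 53 cells, and the vehicle classes 190 and 95.

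**Figure D4:**
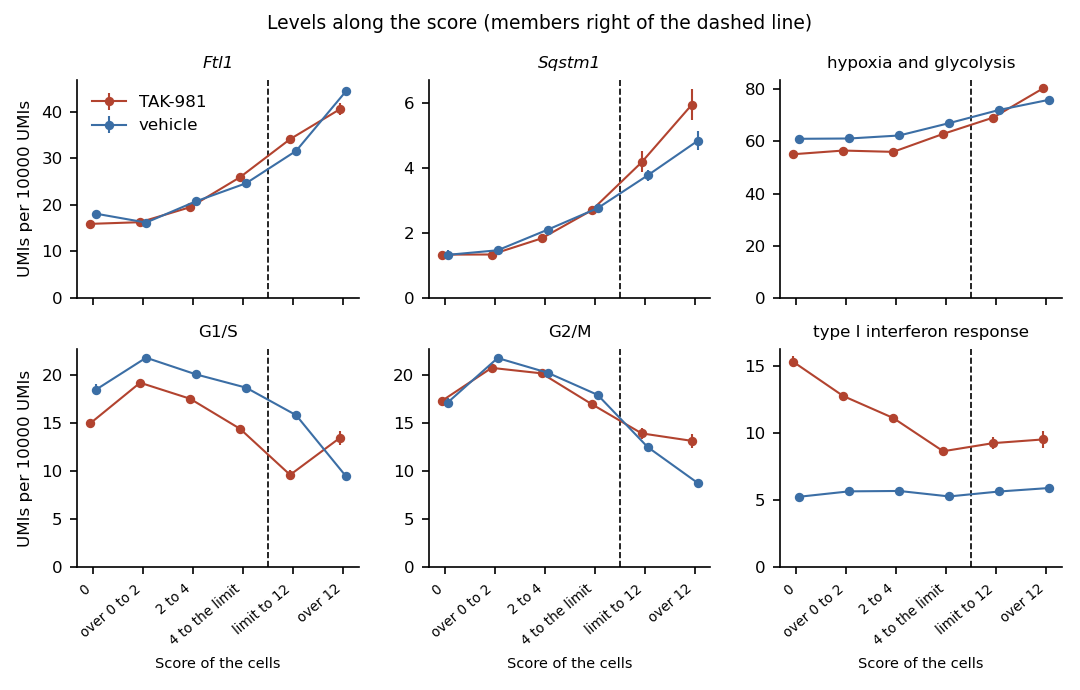
UMIs per 10000 UMIs (vertical axes) of Ftl1, Sqstm1 and 4 gene lists in 6 classes of cells by score (horizontal axes), in the TAK-981 and vehicle libraries, with exact binomial 95% intervals. Ftl1 and Sqstm1 are highest in the top class of both libraries, and the interferon list runs between 15.3 and 8.65 under TAK-981 and between 5.25 and 5.90 under vehicle.

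Members led by different genes differed from each other. Where Hmox1 was the largest part of the score, the hypoxia list stood at 85.0 UMIs per 10000 under TAK-981 and 76.9 under vehicle. Where Mt2 led, it stood at 78.7 and 62.1. Where Cd59a led it stood at 31.2 and 53.6, and where Cox6a2 led at 36.1 and 55.6. Without the Siglech cells the Cox6a2 values were 36.7 over 18 cells and 57.1 over 17 cells. Bnip3 showed the same order in both libraries, at 3.92 and 1.97 in members led by Hmox1, 2.41 and 1.55 in those led by Mt2, 0.245 and 0.903 in those led by Cd59a and 0.198 and 0.321 in those led by Cox6a2. Without the Siglech cells, Bnip3 where Cox6a2 led stood at 0.202 on 7 UMIs under TAK-981 and 0.15 on 4 UMIs under vehicle. Set against the remaining cells, at 57.6 UMIs per 10000 under TAK-981 and 63.2 under vehicle, the hypoxia list was higher in both libraries where Hmox1 led, and where Mt2 led it was higher under TAK-981 and slightly lower under vehicle. Where Cd59a or Cox6a2 led, the list was lower than in remaining cells in both libraries, with or without the Siglech cells. Ftl1 was likewise highest where Hmox1 led, at 40.2 and 37.8, whereas Fth1 in the TAK-981 library was higher where Cd59a or Cox6a2 led (60.1 and 60.6) than where Hmox1 (50.7) or Mt2 (36.4) did. The groups led by Cd59a and Cox6a2 held 11 to 22 cells each.

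Across all measured genes, 133 were at least 2-fold higher in TAK-981 members (1.36%) and 49 in vehicle members (0.5%), with 24 in both (0.245%). At least 2-fold lower were 274 (2.8%) and 106 (1.08%), with 34 in both (0.347%). Most such genes had few UMIs. Among the highest by a rule of size, Ctsl, the lysosomal protease cathepsin L, had 48 UMIs in 27 TAK-981 members and 149 UMIs in 63 vehicle members, at 3.34-fold (2.38 to 4.62) and 2.76-fold (2.26 to 3.34) higher per UMI than in remaining cells, and log2 ratios of 1.07 and 0.54 without the Siglech cells. Cdkn2b, the cell cycle inhibitor p15, was 3.27-fold (2.28 to 4.6) and 2.11-fold (1.64 to 2.70) higher. Anxa5, a phospholipid binding annexin, was 2.78-fold (1.72 to 4.32) and 2.07-fold (1.45 to 2.91) higher. Smox, which oxidises spermine, was 2.63-fold (1.43 to 4.55) and 3.08-fold (1.93 to 4.81) higher. Rilpl2, Themis2, Mapre3, Sgsm2, Zfp467 and Sh2d6 were between 1.95-fold and 3.61-fold higher, on 10 to 82 UMIs in members. Amica1, Tg and Ptcra were between 2.03-fold and 3.01-fold higher, and without the Siglech cells their log2 ratios were 0.52 and 0.74, 1.60 and 1.49, and 1.03 and 1.5.

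Plac8, Tyrobp and Xist were on the list of highest genes through the Siglech cells. Plac8 had log2 ratios of 1.98 and 4.28 with those cells and -1.02 and 0.03 without them. Tyrobp, the adaptor DAP12 of myeloid and NK receptors, had 1.48 and 4.33 with them and -3.27 and 0.90 without. Xist had 2.16 and 1.85 with them and -1.83 and -0.66 without.

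Among the lowest genes, Neil3, a DNA glycosylase of S phase, had 10 UMIs in TAK-981 members and 34 in vehicle members, and was at 0.299-fold (0.142 to 0.556) and 0.346-fold (0.237 to 0.488) of its level in remaining cells. Hist1h1a, a linker histone, was at 0.389-fold (0.270 to 0.544) and 0.373-fold (0.286 to 0.479). The histone genes Hist1h2bg, Hist1h2bn, Hist1h2bm and Hist1h2bj were between 0.204-fold and 0.384-fold on 2 to 12 UMIs. Nts, Stxbp5l and Arhgap19 had only 1 or 2 UMIs in members of each library. Their ratios were 0.176 (0.0044 to 1.01) and 0.115 (0.00286 to 0.665) for Nts, 0.196 (0.00488 to 1.13) and 0.222 (0.0263 to 0.837) for Stxbp5l, and 0.213 (0.00529 to 1.23) and 0.276 (0.0326 to 1.05) for Arhgap19. The counting intervals of these 3 genes reach or pass 1 in at least 1 library.

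Within members, the interferon response was higher under TAK-981 than under vehicle, as it was in remaining cells. Of the 25 interferon genes with at least 50 UMIs over members, 24 were higher under TAK-981, 12 of them at least 2-fold, where 56.7% of the 8141 genes measured in members were above 0 and 0.983% were at least 2-fold higher. The median log2 ratio was 0.93, beside 0.05 for all genes. The filter sums UMIs of both arms, so a sparse gene could pass it through the arm where it was higher. The list sums below take all 50 genes without this filter. In remaining cells the same 25 genes had a median of 1.23 and 16 were at least 2-fold higher, where 59.6% of 10568 genes were above 0 and 1.49% at least 2-fold higher. The list summed to 9.36 UMIs per 10000 in TAK-981 members and 5.73 in vehicle members, and to 11.7 and 5.53 in remaining cells. The ratio was thus smaller in members for 21 of the 25 genes, with a median difference of -0.36 and 7 genes at least 2-fold lower, where 0.7% of 8138 genes were at least 2-fold lower. With 1 library per arm this difference was not tested.

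Isg15, a ubiquitin-like protein that interferon induces, stood at 0.277 UMIs per 10000 in TAK-981 members and 0.0473 in vehicle members, 5.84-fold (3.81 to 9.13) apart, and at 0.513 and 0.0453 in remaining cells, 11.3-fold (9.81 to 13.1) apart. Usp18, which removes ISG15 and dampens the receptor, stood at 0.142 and 0.0316 in members, 4.51-fold (2.58 to 8.04), and at 0.367 and 0.0265 in remaining cells, 13.8-fold (11.5 to 16.8). Irf7, the interferon-inducible transcription factor, was 3.27-fold (2.51 to 4.28) higher in members and 4.81-fold (4.41 to 5.26) in remaining cells. Irf9, the DNA binding part of ISGF3, was 3.11-fold (2.22 to 4.37) and 3.49-fold (3.12 to 3.91) higher. Parp14 had log2 ratios of 0.41 in members and 1.63 in remaining cells, Zbp1 0.67 and 2.02, Tor3a 0.34 and 1.35, and Herc6 -0.09 and 0.96, so these 4 genes were further apart between arms in remaining cells. Isg20, Pml and Samd9l had nearly equal ratios in members and remaining cells, at 1.27 and 1.22, 1.18 and 1.26, and 1.19 and 1.23.

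Set against the remaining cells of the same library, 6 of 31 measured interferon genes were above 0 in TAK-981 members and 19 of 31 in vehicle members. The median log2 ratios were -0.41 and 0.07, and of 12 interferon-inducible GTPases 2 and 8 were above 0. Among all measured genes, 49.2% and 48.5% were above 0. Single cells weighed on these sums. The Siglech cell of the TAK-981 library, with 7202 UMIs and no Cd79a UMI, held 35.7% of the Isg15 UMIs of TAK-981 members. Without the Siglech cells the list stood at 8.54 UMIs per 10000 in TAK-981 members and 11.7 in remaining cells, and at 5.47 and 5.51 under vehicle. In members, the arms then differed by a log2 ratio of 1.90 for Isg15, 1.92 for Usp18 and 1.59 for Irf7, the median of the list was 0.87 and the median difference from remaining cells -0.48. After thinning, the mean per cell was 4.72 list UMIs in TAK-981 members and 4.72 in remaining cells with the Siglech cell, which alone held 130, and 3.78 and 4.72 without it. The thinned medians were 3 and 3. Thinned shares of cells with an Isg15 UMI were 8.89% (4.68 to 15.0%) of TAK-981 members and 8.40% (7.15 to 9.80%) of remaining cells, and 1.40% and 1.58% under vehicle. The smaller interferon sum of TAK-981 members was therefore not visible in the share of Isg15 positive cells. For Usp18 the thinned share was 5.93% of TAK-981 members and 8.23% of remaining cells, and for Irf7 17.0% and 18.1%. By score class under TAK-981, the list stood at 15.3, 12.8, 11.1 and 8.65 UMIs per 10000 in remaining cells. In the 2 classes of members it stood at 9.26 and 9.53, Siglech cell included. Remaining cells just under the limit were thus as low as members.

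**Figure D5:**
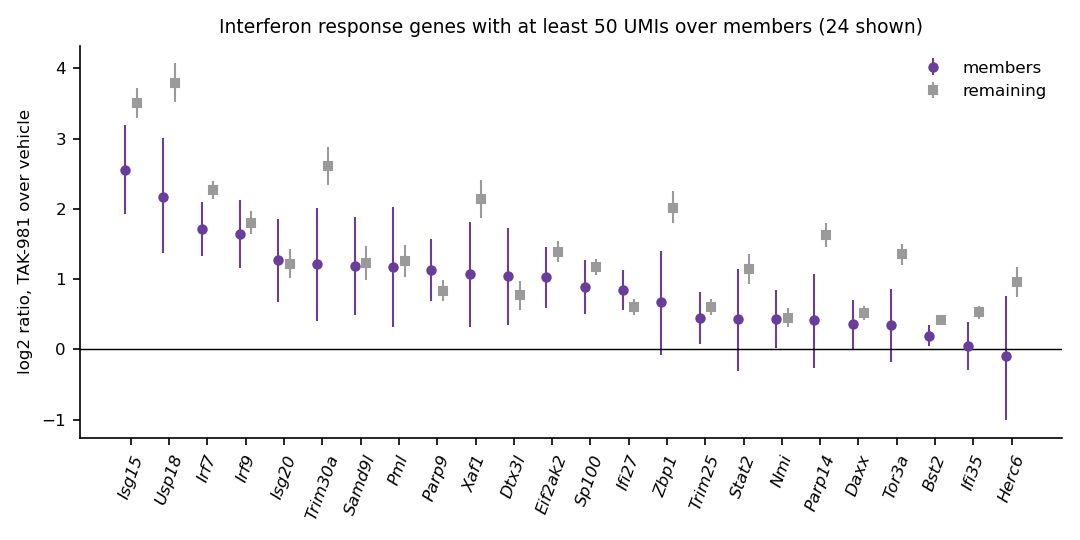
Difference between arms (log2 of TAK-981 over vehicle, vertical axis) for 24 of the 25 interferon response genes with at least 50 UMIs over members, in members (circles) and in remaining tumour cells (squares), with exact 95% counting intervals. Isg15 has 2.55 in members and 3.5 in remaining cells, and Herc6, at the other end, -0.09 and 0.96.

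Other gene groups differed between arms in members much as in remaining cells. Of all measured genes, 56.7% were higher under TAK-981 in members and 59.6% in remaining cells. All 18 chaperones of the endoplasmic reticulum were higher under TAK-981 in members (median log2 ratio 0.33) and in remaining cells (0.30), with Hsp90b1 at 6.47 UMIs per 10000 in TAK-981 members and 3.80 in vehicle members. All 8 measured immunoglobulin constant genes were higher in members (median 0.67), and 11 of 12 in remaining cells (0.47). Ighm, the heavy chain of IgM, stood at 2.82 in TAK-981 members and 1.65 in vehicle members. Of 20 SUMO pathway genes 15 were higher in members (median 0.11) and 19 of 22 in remaining cells (0.16), while Sae1 had ratios of -0.07 and -0.09 and Uba2 -0.15 and -0.24. Immediate early genes were higher in 4 of 13 in members (median -0.47) and 2 of 14 in remaining cells (-0.33), with Fos at 0.822 UMIs per 10000 in TAK-981 members and 1.54 in vehicle members. The hypoxia list was level in members, at 73.5 UMIs per 10000 under TAK-981 and 73.3 under vehicle, with 11 of 18 genes above 0, and stood at 57.6 and 63.2 in remaining cells. The oxidative stress list stood at 137 in TAK-981 members and 139 in vehicle members, with 8 of 20 genes above 0.

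MHC class II and cell cycle genes showed larger gaps between members and remaining cells. None of 9 measured MHC class II genes was higher under TAK-981 in members, with a median of -0.44, against 2 of 10 in remaining cells with -0.19. H2-Aa, a class II alpha chain, stood at 8.87 UMIs per 10000 in TAK-981 members and 12.4 in vehicle members, and at 10.9 and 13.1 in remaining cells. The G2/M list stood at 13.6 in TAK-981 members and 11.3 in vehicle members, with 17 of 20 genes higher, and at 19.3 and 19.9 in remaining cells, with 6 of 20 higher. The difference between these ratios was above 0 for 18 of 20 genes, with a median of 0.34, where 51.8% of all genes were above 0. The G1/S list stood at 11.1 in TAK-981 members and 13.8 in vehicle members, with 2 of 20 genes higher, and at 17.2 and 20.2 in remaining cells, with 1 of 20 higher. Mature B cell genes were higher in 4 of 17 in members (median -0.18) and 11 of 18 in remaining cells (0.13).

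Of the score genes, Cox6a2 and Mt2 were higher in TAK-981 members than in vehicle members, by 1.74-fold (1.55 to 1.95) and 1.58-fold (1.42 to 1.76), while Hmox1 stood at 0.885-fold (0.837 to 0.935), Cd59a at 0.757-fold (0.655 to 0.872) and Gsto1 at a log2 ratio of -0.30. In a score that sums 5 genes these ratios depend on each other, since a member short of one gene must hold more of another. Sqstm1 stood at 4.86 UMIs per 10000 in TAK-981 members and 4.11 in vehicle members, and at 1.77 and 2.03 in remaining cells.

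Across all genes measured in members, 80 were at least 2-fold higher under TAK-981 (0.983%) and 40 at least 2-fold lower (0.491%). Besides the interferon genes Isg15, Usp18, Irf7, Irf9 and Ifi47, the highest by the size rule were Bglap3, Ly6c2, Ighg2b, Ighg2c, Manea, Zfp512b and Tmem140. Ifi47, an interferon-inducible GTPase, was 4.48-fold (2.62 to 7.78) higher, with 48.7% of its UMIs in 1 TAK-981 member. Bglap3, an osteocalcin related gene, was 3.39-fold (2.68 to 4.28) higher in members and 4.70-fold (4.29 to 5.15) in remaining cells. Ighg2c and Ighg2b, heavy chains of IgG, were 2.94-fold and 3.21-fold higher, with 42.2% and 54.5% of their UMIs in 1 TAK-981 member of 8801 UMIs. The lymphoid and myeloid surface antigen gene Ly6c2 was 3.38-fold (2.12 to 5.45) higher, with 55.8% of its UMIs in TAK-981 members in the Siglech cell. Without the Siglech cells of both libraries, Ly6c2 had 19 UMIs in TAK-981 members and 9 in vehicle members, a log2 ratio of 2.53 against 1.76 with them. Manea, a Golgi mannosidase, was 2.84-fold (1.71 to 4.73) higher in members and 1.09-fold (0.906 to 1.32) in remaining cells.

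The lowest genes under TAK-981 had between 4 and 19 UMIs in TAK-981 members. Anxa10, an annexin, had 4 and 65 UMIs in TAK-981 and vehicle members, 0.169-fold (0.0448 to 0.455), and 0.507-fold (0.447 to 0.574) in remaining cells. Bcl6, the repressor of germinal centre B cells, had 8 and 56, 0.393-fold (0.162 to 0.830), and 1.11-fold (0.953 to 1.30) in remaining cells. Chaf1b, a histone chaperone of replication, had 19 and 130, 0.403-fold (0.235 to 0.654), and 0.767-fold (0.698 to 0.842) in remaining cells. Macrod1, Itpk1, Sdccag8, Jade2, Sapcd2 and the histone gene Hist1h3g lay between 0.225-fold and 0.381-fold in members. Siglech stood at 0.302-fold (0.126 to 0.627), on 1 and 3 cells.

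The gap between arms differed most between members and remaining cells for small counts. Members were above remaining cells in this ratio for Smtn, Manea, Ly6c2, H60b and Sowahc, of 17 genes at least 2-fold apart (0.209%). Smtn, a smooth muscle cytoskeletal gene, had log2 ratios of 0.62 in members and -0.94 in remaining cells, and H60b, a ligand of the NK receptor NKG2D, 1.42 and 0.16. At the other end were Tyrobp, Hist1h3g, Serpina3f, Plac8 and Serpina3g, of 57 genes (0.7%). Without the Siglech cells the difference was -4.17 for Tyrobp, on 1 and 11 member UMIs, and -1.05 for Plac8, on 2 and 3. Serpina3f and Serpina3g, protease inhibitors induced by interferon, had -0.71 and -0.58 in members against 1.60 and 1.59 in remaining cells. A single vehicle member of 29262 UMIs held 57.8% and 43.9% of the UMIs of this pair in vehicle members, and 58.4% and 81.2% of those of the interferon-inducible GTPases Gbp2 and Gbp7. Without it, the log2 ratios of vehicle members over remaining cells were 0.15 for Serpina3f, 0.10 for Serpina3g, -0.17 for Gbp2 and -0.29 for Gbp7.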

How the data were processed

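Gene by barcode tables of UMI counts were deposited for 2 libraries. The counts are whole numbers with no normalization, per the file headers and values. The submitters' processing notes name Cell Ranger 2.1.1 and Seurat 2, with no role. The genome build is not given in the sources used here. The lowest barcode held 4670 UMIs under TAK-981 and 5965 under vehicle, so barcodes had been selected before deposit, and 376 and 124 had at least 10% mitochondrial UMIs. No doublet caller was run, and genes with near-identical copies are uncertain.

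Counts were summed over members and remaining cells of each library and scaled to 10000 UMIs. Ratios carry exact conditional binomial 95% intervals, shares and sums exact binomial (Clopper-Pearson) ones, and all cover counting error only. Where a group had 0 counts, 3 counts were used as the bound. With 1 library per arm no test was possible, and no p-value is given. Genes were measured from 50 UMIs: in tumour cells of each library for members over remaining cells, over the compared cells of both libraries for TAK-981 over vehicle, and in members and in remaining cells for the difference. Thinning drew 4000 UMIs from each cell, and no tumour cell was shallower.

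Named genes were the 20 highest and 10 lowest ratios of members over remaining cells, ranked by the library nearer 0, the 12 highest and 10 lowest of TAK-981 over vehicle in members and the 5 highest and lowest differences, besides score genes, paralogs and list genes by level or past 2-fold. The members, the 22 gene lists and the 13 marker lists were chosen with earlier results of these data known. Values of 2 genes in these lists and rules are not reported here. Genes given for their place in a pathway or for a share of UMIs in 1 cell were partly chosen after their values were seen. Alternatives changed the limit, scaling, filters, thinning, the UMIs that chose members and the cells left out. Ratios were checked on simulated counts. Scripts ran in Python 3.11.15 with scipy 1.17.1, pandas 2.3.3, numpy 2.4.6 and, for plots, matplotlib 3.10.9. Promoters came from RefSeq (GRCm38.p6).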

Additional observations from a re-analysis of the deposited data

Results flagged for a closer look

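None of the differences below was tested, because each arm held 1 library. Barcodes that met the other rules for tumour cells but had at least 10% mitochondrial UMIs entered no comparison. They also held high scores: 26 of 365 under TAK-981 passed the limit, a share of 7.12% (4.71 to 10.3%), and 6 of 117 under vehicle, a share of 5.13% (1.90 to 10.8%). The intervals are exact binomial ones.

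For 3 of the genes named by the size rule the ratio of TAK-981 over vehicle had opposite signs in members and in remaining cells, with counting intervals that excluded 0. The log2 ratios were 0.24 and -0.20 for Sqstm1, -0.91 and 1.38 for Plac8, and -1.23 and 1.61 for Tyrobp. Plac8 and Tyrobp had most of their member UMIs in the 4 members with Siglech. Without the Siglech cells Plac8 had 0.87 in members and 1.92 in remaining cells, no longer of opposite sign, on 2 and 3 member UMIs. Tyrobp then had -2.00 and 2.17, on 1 and 11 member UMIs under TAK-981 and vehicle.

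For 2 of these named genes the ratio of members over remaining cells had opposite signs in the TAK-981 and vehicle libraries, with counting intervals that excluded 0 in both. Serpina3f had log2 ratios of -0.92 and 1.39, and Serpina3g -1.25 and 0.93. Under vehicle both rest on 1 member, without which they were 0.15 and 0.10.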

How the results depend on the processing

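No paired analysis was possible because each arm held 1 library. Leaving out a library would leave no comparison. Of the gene values under the alternatives, 4536 moved by less than their counting interval, 691 moved further and 22 turned sign. Causes were not tested.

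The share of members under TAK-981 and vehicle was 3.69% and 6.07% with the top 5% of cells, 16.1% and 23.2% with the top 20%, 10.0% and 10.0% with the top taken per library, and 9.02% and 10.8% with thinned scores. Ties at the limit of the thinned scores were filled with TAK-981 cells first, and all values with thinned scores rest on members so chosen. Genes at least 2-fold higher in members of both libraries numbered 24, and 52 with the top 5%, 11 with the top 20%, 12 with thinned scores, 114 from 10 UMIs, 606 from 1 UMI and 7 from 500 UMIs. Those lower numbered 34, and 109, 9, 10 and 52 with the top 5%, the top 20%, thinned scores and members chosen on a portion of the UMIs, and 9 from 500 UMIs. Genes at least 2-fold higher under TAK-981 in members numbered 80, and 53 under 5% mitochondrial UMIs, 135 with the portion, 172 with cell means, 335, 941 and 2 from 10, 1 and 500 UMIs. Those lower numbered 40, and 18 with thinned scores, 118 with the portion, and 221, 300 and 2 from 10, 1 and 500 UMIs. Filters on UMIs change how many genes are counted, and counts of genes past a fold rest mostly on low ones. The filter of 500 UMIs and the omission of Siglech cells were chosen after seeing the data.

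The median of the interferon list in members over remaining cells was -0.63 with the portion under TAK-981 and -0.11 with the top 20% under vehicle. That of G1/S was -0.41, -0.35 and -0.51 under TAK-981 with the top 20%, thinned scores and cell means, and -0.80 under vehicle with the top 5%. That of G2/M was -0.82, -0.38, -0.31 and -0.59 under TAK-981 with the top 5%, the top 20%, thinned scores and the portion, and under vehicle -0.997, -0.49, -0.94, -0.64, -0.98 and -0.95 with the top 5%, the top 20%, the top per library, thinned scores, the deepest cells left out and cell means. That of hypoxia under TAK-981 was 0.16 with the top 20%.

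Single genes that turned sign had few UMIs. In members over remaining cells under TAK-981 these were, with the portion, Arhgap19 0.33, Stxbp5l 0.28, Sgsm2 -0.20, Plac8 -0.30, Tyrobp -1.13 and Xist -1.25, with the top 5% Nts 0.032 and Stxbp5l 0.18, and with thinned scores Sgsm2 -0.094. Tg under vehicle was -0.080 with thinned scores. Without Siglech cells, Plac8 was -1.02, Tyrobp -3.27 and Xist -1.83 under TAK-981, and Xist -0.66 under vehicle. Without Xist cells, Tyrobp was -0.36 under TAK-981 and Plac8 -0.40 under vehicle, and the difference for Plac8 was 2.23. For TAK-981 over vehicle in members, the portion gave Hist1h3g 0.017, Iglc2 -0.47 and Ly6c2 -0.10, the top 20% Bcl6 0.10, and the difference for Ly6c2 was -0.71 with the portion.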
